A study of Mus musculus with 10 samples.

Results

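The immediate early genes examined here are 10 genes of the AP-1 and EGR response, chosen by symbol as Fos, Fosb, Fosl1, Fosl2, Jun, Junb, Jund, Egr1, Ier2 and Dusp1. All 10 were found among the 24016 gene symbols of the nascent transcription table, as 11 of its 33022 transcripts, and all 10 were among the 11602 genes that passed a filter on low values. The data are global run-on sequencing (GRO-seq) of organoids grown in Matrigel from mouse duodenum. In GRO-seq, nuclei are isolated and polymerases already on a gene run on with labelled nucleotides, so the reads follow transcription and not the stored message. The tested organoids were in ENRI, a differentiation medium towards enterocytes, with EGF, Noggin, R-spondin and IWP-2, an inhibitor of Wnt secretion, and without Wnt3A and CHIR-99021. Their counterparts were in WENRC, a stem cell medium with the same 3 factors plus Wnt3A and the Wnt pathway agonist CHIR-99021. EGF was thus present in both media. Each medium had 2 GRO-seq libraries and 1 ChIP-seq library of H3K27me3, the histone mark of Polycomb repressive complex 2. The labels give no strain or age and number the mice 1 and 2 in both media. They name the cells of ENRI organoids enterocytes and those of WENRC organoids intestinal stem cells, although an organoid holds several epithelial cell types.

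Immediate early genes are transcribed within minutes of a growth factor or stress signal, without new protein synthesis. Signals through the ERK, JNK and p38 kinases act on factors already bound at these genes, such as serum response factor with its ternary complex partners. FOS and JUN proteins pair through leucine zippers to form AP-1, EGR1 is a zinc finger factor, and DUSP1 is a phosphatase that switches the kinases off again. In the gut the EGF supplied by the niche is one such signal.

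The ENRI libraries held 29128101 (batch 1) and 15787828 (batch 2) recovered reads, and the WENRC libraries 25839484 (batch 1) and 9245915 (batch 2). A batch is the number that the file header gives a library. Levels are reads per kb of transcript and per 1e6 reads of the library (RPKM), and log2 differences were fitted on RPKM with a pseudocount of 0.5. The markers fixed for the labelled cells separated the media in every library. The summed level of 10 enterocyte markers was 558 and 768 RPKM in ENRI, against 49.3 and 23.7 RPKM in WENRC. That of 9 stem cell markers was 7.34 and 4.63 RPKM in ENRI, against 28.2 and 35.9 RPKM in WENRC. Endothelial markers summed to at most 0.346 RPKM and mesenchymal markers to at most 1.73 RPKM in any library. The 8 immune markers summed to 6.20 and 6.31 RPKM in ENRI, against 14.9 and 18.7 RPKM in WENRC, most of it from Cd68, a gene of macrophages and lysosomes. The part of such cells in the values below was not tested. The pan-leukocyte gene Ptprc had a mean of 0.0217 RPKM in ENRI and 0.00625 RPKM in WENRC, and the T cell gene Cd3e had no read in ENRI and 0.0235 RPKM in WENRC. In such bulk samples, fewer cells of a type and less RNA per cell cannot be told apart.

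None of the 10 genes passed the limma test between the media. In limma, at a Benjamini-Hochberg adjusted p of 0.05, 0 of 10 were called, beside 0.147% of all tested genes (17 of 11602). Their adjusted p lay between 0.177 and 0.926. An unadjusted p under 0.05 was found for 0 of 10, beside 39.0% of all tested genes (4521 of 11602). The same test called 0 of 9 tested enterocyte markers and 0 of 8 tested stem cell markers. Among these, Apoa1 had a log2 difference of 5.95 with an adjusted p of 0.0507 (limma). A gene that limma did not call may therefore still differ between the media. With the batch as a replicate block limma called 0 of all tested genes. The quasi-likelihood test of edgeR on recovered reads called 0 of 10 without the block (8.44% of all genes) and with it (8.03%, of which 5.32% higher and 2.72% lower in ENRI). DESeq2 without the block called 2 of 10, Fos and Fosl2, both higher in ENRI, beside 23.6% of all genes (14.7% higher and 8.89% lower). With the block it called Fos alone, beside 14.9% of all genes (10.1% higher). In the authors' deposited table none of the 10 had an FDR under 0.05, beside 12.7% of the tested genes, and the lowest FDR was 0.0774, for Dusp1. The median log2 difference, ENRI minus WENRC, was 0.15 over the 10 genes and −0.21 over all tested genes. That background moved to −0.02 under TMM scaling, which gave a median of 0.41 for the 10 genes, so signs close to 0 depend on the scaling.

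**Figure D1:**
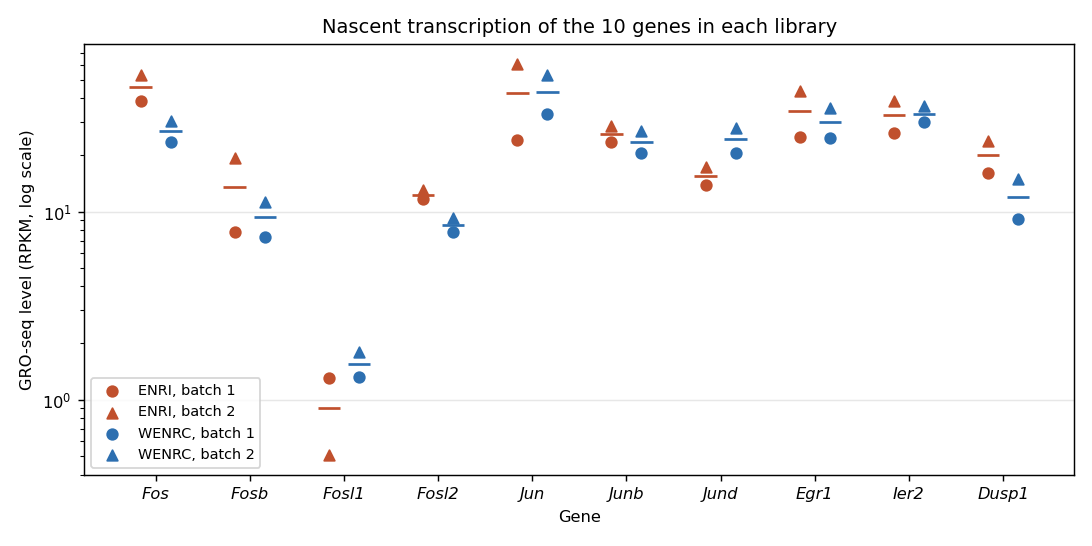
GRO-seq level in RPKM, on a log axis, for the 10 genes in each library. Circles are batch 1, triangles batch 2, and short bars the mean of 2 libraries. ENRI points lie left of WENRC points. Fos, Fosl2 and Dusp1 have both ENRI libraries above both WENRC libraries, and Fosl1 lies far below the other 9 genes.

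Fos encodes c-FOS, the prototype partner of JUN proteins in AP-1. It had 38.7 and 53.1 RPKM in ENRI batches 1 and 2, against 23.6 and 30.4 RPKM in WENRC batches 1 and 2. Both ENRI libraries were above both WENRC libraries. The log2 difference was 0.75 ± 0.35 (SE; 95% interval −0.19 to 1.69; adjusted p = 0.185, limma), with 0.70 in batch 1 and 0.80 in batch 2, so it did not pass the test although both pairs gave nearly the same value. DESeq2 gave 1.05 with an adjusted p of 0.0129 without the block and 1.04 with an adjusted p of 0.0383 with it. The authors' deposited table gave 1.01 with an FDR of 0.0840. Fos (NM_010234) lies on chromosome 12 at 86814851 to 86818219 on the plus strand in build mm9, the build of all positions here unless another is named.

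Fosl2 encodes FRA-2, a FOS family member that lacks the strong transactivation domain of c-FOS. It had 11.6 and 13.0 RPKM in ENRI, against 7.80 and 9.20 RPKM in WENRC, and again both ENRI libraries were above both WENRC libraries. Its libraries differed least between batches of the 10 genes, 1.12-fold in ENRI and 1.18-fold in WENRC. The log2 difference was 0.51 ± 0.23 (SE; 95% interval −0.11 to 1.14; adjusted p = 0.177, limma), with 0.55 in batch 1 and 0.47 in batch 2. DESeq2 without the block gave 0.81 with an adjusted p of 0.0180. Fosl2 (NM_008037) is the longest of the 10 genes at 21367 bp, on chromosome 5 at 32438845 to 32460212, plus strand.

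Fosb encodes FOSB, whose splice form ΔFOSB is known for its stability in brain. It had 7.75 and 19.4 RPKM in ENRI, against 7.32 and 11.3 RPKM in WENRC. The ENRI library of batch 1 lay between the WENRC libraries, so the media overlapped. The log2 difference of 0.42 ± 0.52 (SE; 95% interval −0.99 to 1.82) came from batch 2 (0.75) more than from batch 1 (0.08), and was −0.22 without the ENRI library of batch 2. Fosb (NM_008036) lies on chromosome 7 at 19888045 to 19895394, minus strand.

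Fosl1 encodes FRA-1, the other FOS-related antigen. It was the least transcribed of the 10, at 1.31 and 0.507 RPKM in ENRI, against 1.33 and 1.79 RPKM in WENRC. These levels rest on 314 and 66 reads in ENRI and on 283 and 136 reads in WENRC. Both ENRI libraries lay below both WENRC libraries, but in batch 1 the media differed by only −0.02 on the log2 scale and in batch 2 by −1.18. The fitted difference was −0.60 ± 0.33 (SE; 95% interval −1.48 to 0.28; adjusted p = 0.236, limma). Without the ENRI library of batch 1 it was −1.02 with an adjusted p of 0.0218, a fit in which 49.9% of all tested genes were called (34.3% lower in ENRI) and in which the lone ENRI library was assumed to vary like the WENRC pair. Fosl1 (NM_010235) lies on chromosome 19 at 5447698 to 5455938, plus strand. Ccdc85b overlaps 2775 bp of it on the other strand and had 1.45 and 0.648 RPKM in ENRI, against 1.83 and 2.11 RPKM in WENRC. The strand setting of the counting is not stated, so reads of the 2 genes cannot be told apart there.

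Jun encodes c-JUN, the main DNA-binding partner of FOS proteins and a substrate of the JNK kinases. It had the largest standard error of the 10, with 23.9 and 61.2 RPKM in ENRI, against 33.1 and 53.2 RPKM in WENRC. The ENRI libraries were the lowest and the highest of the 4. The log2 difference was −0.13 ± 0.59 (SE; 95% interval −1.72 to 1.46), with −0.46 in batch 1 and 0.20 in batch 2, and its sign turned to 0.13 under TMM scaling. The interval leaves room for a difference of over 2-fold in either direction. Jun (NM_010591) lies on chromosome 4 at 94715727 to 94718913, minus strand.

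Junb encodes JUNB, a weaker activator that can oppose c-JUN. It had 23.3 and 28.7 RPKM in ENRI, against 20.5 and 26.7 RPKM in WENRC, and the media overlapped. The log2 difference was 0.14 ± 0.31 (SE; 95% interval −0.70 to 0.98), smaller than its error. Jund encodes JUND, which is known for steady expression in resting cells. It had 13.8 and 17.2 RPKM in ENRI, against 20.5 and 27.9 RPKM in WENRC, so both ENRI libraries lay below both WENRC libraries. The log2 difference was −0.62 ± 0.31 (SE; 95% interval −1.46 to 0.22; adjusted p = 0.210, limma), with −0.55 in batch 1 and −0.68 in batch 2. Measured from the median of all tested genes, Jund differed by −0.41 and Fos by 0.96. Junb (NM_008416) and Jund (NM_001286944) lie on chromosome 8, at 87500808 to 87502647 on the minus strand and at 73221638 to 73224515 on the plus strand. A second Jund transcript, NM_010592, has the same length, and its reads differed from those of the first by at most 2 in any library.

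Dusp1 encodes a nuclear phosphatase that removes the activating phosphates from MAP kinases and is itself induced by them. It had 16.1 and 23.9 RPKM in ENRI, against 9.17 and 14.9 RPKM in WENRC, and both ENRI libraries were above both WENRC libraries. The log2 difference was 0.72 ± 0.38 (SE; 95% interval −0.30 to 1.74; adjusted p = 0.224, limma), with 0.78 in batch 1 and 0.66 in batch 2. The authors' deposited table gave 0.99 with an FDR of 0.0774. Dusp1 (NM_013642) lies on chromosome 17 at 26642536 to 26645417, minus strand. Ier2, a small nuclear protein of the immediate early response, had 26.1 and 38.8 RPKM in ENRI, against 30.05 and 36.3 RPKM in WENRC. Its ENRI libraries were the lowest and the highest, and the log2 difference was −0.05 ± 0.35 (SE; 95% interval −1.01 to 0.90), which turned to 0.21 under TMM scaling. Ier2 (NM_010499), the shortest of the 10 at 1521 bp, lies on chromosome 8 at 87185230 to 87186751, minus strand.

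Egr1 encodes a zinc finger factor induced through the ERK kinases. It had 24.8 and 43.8 RPKM in ENRI, against 24.5 and 35.5 RPKM in WENRC. The batch 1 libraries of both media were nearly equal, and the log2 difference was 0.16 ± 0.43 (SE; 95% interval −1.01 to 1.32; adjusted p = 0.806, limma). It was −0.25 without the ENRI library of batch 2. Egr1 (NM_007913) lies at 35020861 to 35024610 on the plus strand of chromosome 18.

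Of the 10 genes, 3 (Fos, Fosl2 and Dusp1) had both ENRI libraries above both WENRC libraries, as did 23.0% of all tested genes. The 2 genes with both ENRI libraries below both WENRC libraries were Jund and Fosl1, and 49.7% of all tested genes had that order. The other 5 overlapped between the media. In 8 of 10 genes the difference had 1 direction in both batches, Jun and Ier2 being the exceptions. Among the 8, Fosl1 (−0.02) and Egr1 (0.02) hardly differed between the media in batch 1. The share of all tested genes with 1 direction was not counted, so the 8 cannot be set against it.

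**Figure D2:**
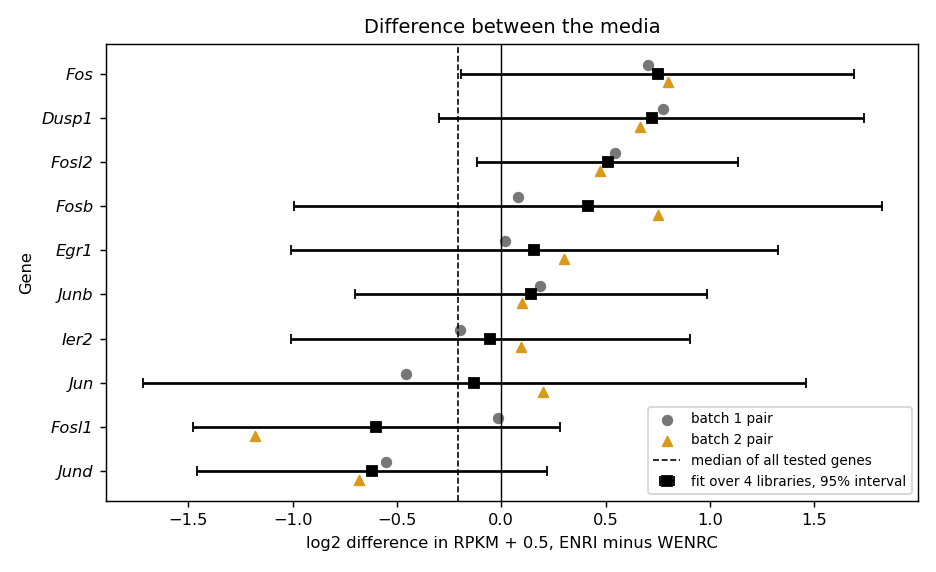
Difference between the media for the 10 genes, as log2 of RPKM + 0.5, ENRI minus WENRC. Black squares with bars are the limma fit over 4 libraries with its 95% interval, grey circles the batch 1 pair and orange triangles the batch 2 pair. All 10 intervals include 0, and the dashed line marks the median of all tested genes at −0.21.

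Apart from Fosl1 these genes were among the most transcribed per length. In each of the 4 libraries the other 9 lay between the 93.3rd and the 99.4th percentile of tested genes, while Fosl1 lay between the 18.7th and the 59.5th. Reads were counted over the whole gene body, start included, and 9 of the 10 genes are shorter than 10000 bp, as are 37.1% of tested genes. The median length was 3277 bp for the 10 genes and 15568.5 bp for all tested genes. By mean level the order in ENRI was Fos, Jun, Egr1, Ier2, Junb, Dusp1, Jund, Fosb, Fosl2 and Fosl1. In WENRC it was Jun, Ier2, Egr1, Fos, Jund, Junb, Dusp1, Fosb, Fosl2 and Fosl1. Neighbours in these orders overlapped in their 2 libraries, except Fosl2 against Fosl1 in both media and Junb against Dusp1 in WENRC.

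Within the FOS family, Fos made up most of the summed level in all 4 libraries. Its share of the summed RPKM was 65.2% and 61.8% in ENRI batches 1 and 2, against 58.9% and 57.7% in WENRC. Fosl2 held 19.6% and 15.1% in ENRI, against 19.5% and 17.5% in WENRC. Fosl1 held 2.20% and 0.590% in ENRI, against 3.32% and 3.39% in WENRC. Within the JUN family the share of Jund was 22.6% and 16.1% in ENRI, against 27.7% and 25.9% in WENRC. That of Jun was 39.2% and 57.2% in ENRI, against 44.7% and 49.3% in WENRC, so the batches of ENRI differed more than the media.

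The balance between both families also differed in level. The summed FOS family level was 0.973 and 0.803 times that of the JUN family in ENRI, against 0.541 and 0.489 times in WENRC. The ratio of Fos to Jund, a pair chosen after its values were seen, was 2.81 and 3.08 in ENRI, against 1.15 and 1.09 in WENRC. Both ratios lay apart between the media and are free of the scaling of a library. With 2 libraries per medium, and genes picked with their values known, they are given without a test.

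**Figure D3:**
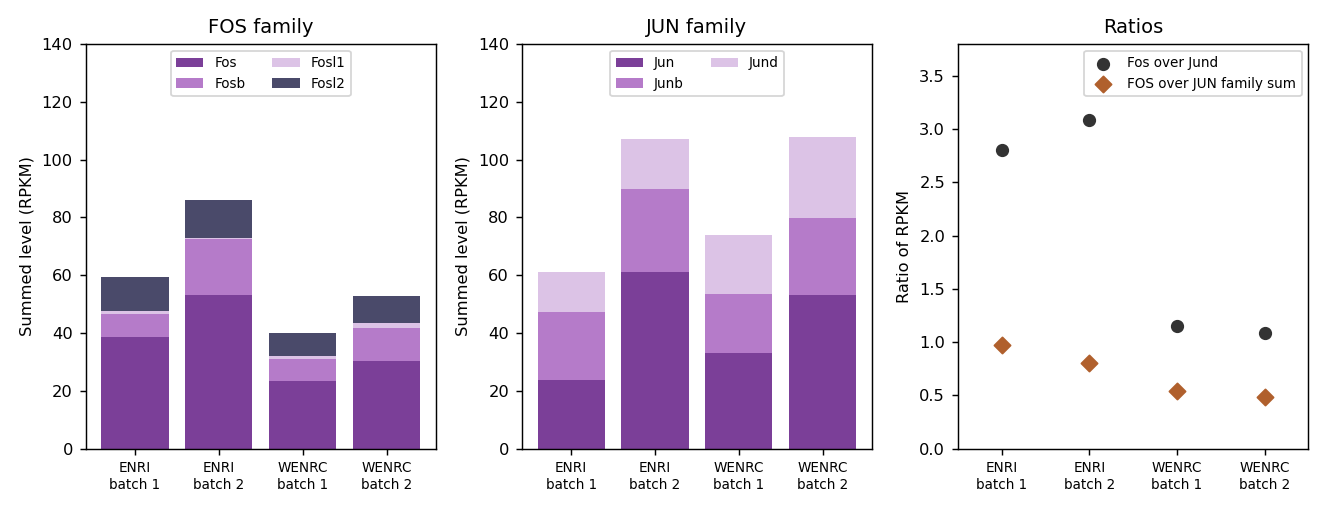
Summed RPKM of the FOS family and of the JUN family, split by gene, and ratios of RPKM, in the 2 ENRI and the 2 WENRC libraries. The FOS family sums to 59.4 and 86.0 RPKM in ENRI against 40.01 and 52.7 RPKM in WENRC, while the JUN family sums of the media overlap. The Fos over Jund ratio is 2.81 and 3.08 in ENRI against 1.15 and 1.09 in WENRC.

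The libraries of 1 medium also differed from each other. In ENRI, 9 of 10 genes were higher in batch 2 than in batch 1, all but Fosl1, beside 42.3% of all tested genes. In WENRC it was 10 of 10, beside 43.4% of all tested genes. In both media 9 of 10 were higher in batch 2, as were 15.6% of all tested genes. The median log2 difference, batch 2 minus batch 1, was 0.50 in ENRI and 0.41 in WENRC over the 10 genes, against −0.07 in ENRI and −0.03 in WENRC over all tested genes. Jun was 2.56 times as high in batch 2 as in batch 1 in ENRI and 1.61 times in WENRC, and Fosb 2.50 times in ENRI and 1.54 times in WENRC. This comparison was added after the values were seen. With the medium as a term, limma called 0 of the 10 genes between batches (0.0% of all tested genes). At an unadjusted p under 0.05 in limma were 1 of the 10 and 340 of all 11602 tested genes. The quasi-likelihood test of edgeR also called 0 of 10 (0.069% of all tested genes). In it 4 of the 10, Fosb, Jun, Egr1 and Dusp1, and 250 of all 11602 tested genes had an unadjusted p under 0.05.

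Depth, other immediate early genes and a set of stress genes are given beside this difference. Of 33 tested genes on a list of other immediate early genes, described below, 18 were higher in batch 2 in both media. That order was found for 15.6% of all tested genes. The median of that list, batch 2 minus batch 1, was 0.11 in ENRI and 0.50 in WENRC. The batch 2 libraries were shallower than those of batch 1 in both media. Of 12 tested heat shock genes, 2 were higher in batch 2 in both media, beside the same 15.6% of all tested genes. The heat shock list summed to 163 and 81.2 RPKM in ENRI batches 1 and 2, against 204 and 173 RPKM in WENRC. Hspa8, a constitutive HSP70 gene, had a batch difference in WENRC larger than that of the whole sum, with 97.7 and 34.3 RPKM in ENRI, against 103 and 58.0 RPKM in WENRC. The median of the heat shock list, batch 2 minus batch 1, was −0.38 in ENRI and 0.0457 in WENRC. The part of depth, of mouse and of handling in the difference between batches was not tested.

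**Figure D4:**
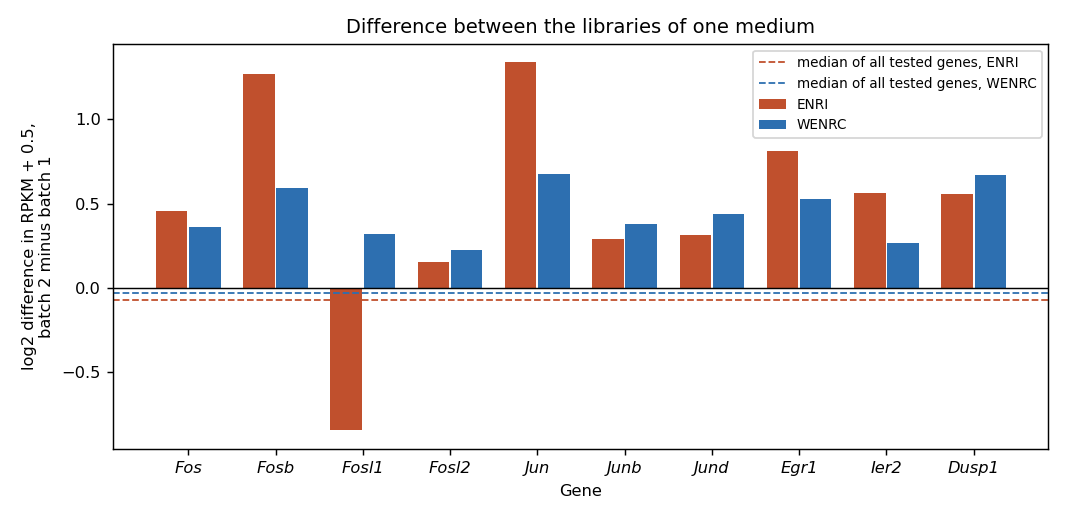
Difference between the 2 libraries of 1 medium, as log2 of RPKM + 0.5, batch 2 minus batch 1, with ENRI bars left of WENRC bars. All WENRC bars and all ENRI bars but that of Fosl1 are above 0, and the dashed lines mark the medians of all tested genes, −0.07 in ENRI and −0.03 in WENRC.

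Other immediate early genes lay in both directions. Of 37 listed genes 33 were tested, 18 higher and 15 lower in ENRI with a median log2 difference of 0.15, while 34.3% of all tested genes were higher in ENRI. In limma 0 passed and 10 had an unadjusted p under 0.05, beside 39.0% of all tested genes. The quasi-likelihood test with the block called 5 higher and 1 lower, beside 5.32% higher and 2.72% lower of all tested genes. DESeq2 without the block called 9 higher and 1 lower, beside 14.7% higher and 8.89% lower of all tested genes. Zfp36, which encodes an RNA-binding protein that destabilizes inflammatory messages, had 51.8 and 100.5 RPKM in ENRI, against 20.03 and 26.7 RPKM in WENRC (adjusted p = 0.0855, limma). Its adjusted p was 0.0327 in the quasi-likelihood test with the block and 8.7e-05 in DESeq2 without the block. Myc, a Wnt target as well as an immediate early gene, had 7.26 and 2.31 RPKM in ENRI, against 8.92 and 13.9 RPKM in WENRC. The stress-induced factor Atf3 had 9.97 and 17.6 RPKM in ENRI, against 8.76 and 19.4 RPKM in WENRC, and its log2 difference was 0.02 ± 0.51 (SE). Ier3, a survival gene of the same response, had 13.6 and 4.65 RPKM in ENRI, against 9.69 and 20.5 RPKM in WENRC, so the media overlapped.

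Relatives and partners of AP-1 and EGR1 were taken next. Of 14 listed AP-1 relatives 9 were tested, 4 higher and 5 lower in ENRI (median −0.08, against −0.21 over all tested genes). In limma 0 were called and 3 had an unadjusted p under 0.05, beside 39.0% of all tested genes. The quasi-likelihood test with the block (5.32% of all tested genes higher) and DESeq2 (14.7% higher) each called 3 higher. Among them Maf, a basic leucine zipper factor, had 1.73 and 2.89 RPKM in ENRI, against 0.393 and 0.802 RPKM in WENRC (log2 1.35 ± 0.30, adjusted p = 0.0623, limma). For Maf the quasi-likelihood test with the block gave an adjusted p of 0.0299 and DESeq2 without the block 0.00105. The JNK and p38 substrate Atf2 differed by −0.16 ± 0.16 and its relative Atf7 by −0.36 ± 0.14. Of the EGR family and its NAB corepressors 3 of 5 were tested, and limma, edgeR with the block and DESeq2 called 0 (0 at an unadjusted p under 0.05 in limma). Egr2 had 0.278 and 0.821 RPKM in ENRI, against 0.663 and 1.603 RPKM in WENRC, and Nab2 had 3.61 and 5.85 RPKM in ENRI, against 3.74 and 3.70 RPKM in WENRC. Nab1, the other corepressor, differed by −0.21 ± 0.19.

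The lists of the serum response factor module and of the kinases had medians of −0.23 to −0.02, against −0.21 over all tested genes. All 12 listed genes of the module were tested, with a median of −0.23. Besides Srf and its partners they include actin and other cytoskeletal genes. In limma 0 were called (1 at an unadjusted p under 0.05, beside 39.0% of all tested genes). The quasi-likelihood test with the block also called 0, and DESeq2 without the block 1 higher, the actin gene Actb. Of all tested genes, the quasi-likelihood test with the block called 5.32% higher and DESeq2 14.7% higher. Srf itself had 1.43 and 2.67 RPKM in ENRI, against 2.04 and 3.49 RPKM in WENRC. Its partners of the ternary complex differed by −0.32 ± 0.13 for Elk1, −0.36 ± 0.36 for Elk3 and 0.14 ± 0.15 for Elk4. All 19 genes listed from the EGF receptor to ERK were tested (median −0.02), with 0 called in limma (5 at an unadjusted p under 0.05), 2 higher in the quasi-likelihood test with the block and 5 higher in DESeq2. Erbb3, a receptor that pairs with ERBB2, had 9.03 and 12.8 RPKM in ENRI, against 3.34 and 2.87 RPKM in WENRC (log2 1.64 ± 0.25, adjusted p = 0.0560, limma). Its adjusted p was 0.0325 in the quasi-likelihood test with the block and 1.2e-08 in DESeq2 without the block. Erbb2 differed by 0.53 ± 0.16, and the exchange factor Sos1 by −0.02 ± 0.12. The EGF receptor gene Egfr had 1.95 and 0.370 RPKM in ENRI, against 0.958 and 0.932 RPKM in WENRC, with the ENRI libraries on either side. Of 13 JNK and p38 kinases limma called 0 (2 at an unadjusted p under 0.05), the quasi-likelihood test with the block 0 and DESeq2 2 higher. The JNK gene Mapk8 differed by 0.49 ± 0.13, its relative Mapk9 by −0.14 ± 0.12 and the p38 genes Mapk14 by −0.02 ± 0.12 and Mapk11 by 0.15 ± 0.21.

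The phosphatases related to Dusp1 and the feedback genes of ERK lay in both directions. Of 17 listed phosphatases and ERK feedback genes 15 were tested, 5 higher and 10 lower in ENRI (median −0.11), beside 34.3% of all tested genes higher in ENRI. In limma 0 passed and 6 had an unadjusted p under 0.05, beside 39.0% of all tested genes. The quasi-likelihood test with the block called 2 higher, beside 5.32% of all tested genes. DESeq2 without the block called 3 higher and 1 lower, beside 14.7% higher and 8.89% lower of all tested genes. Dusp5, a nuclear ERK phosphatase, had 11.1 and 34.97 RPKM in ENRI, against 2.69 and 3.32 RPKM in WENRC (log2 2.54 ± 0.59, adjusted p = 0.0663, limma). Dusp6, its cytoplasmic relative, had 12.9 and 13.9 RPKM in ENRI, against 5.33 and 6.02 RPKM in WENRC (1.17 ± 0.21, adjusted p = 0.0565, limma). The quasi-likelihood test with the block gave an adjusted p of 0.0267 for Dusp5 and 0.0324 for Dusp6. DESeq2 without the block gave an adjusted p of 2.9e-07 for Dusp5 and 2.4e-06 for Dusp6. Dusp4 had 3.904 and 4.099 RPKM in ENRI, against 6.40 and 7.55 RPKM in WENRC (−0.73 ± 0.19), and the feedback inhibitor Spry2 had 2.61 and 4.60 RPKM in ENRI, against 2.18 and 2.33 RPKM in WENRC. Of these 4 genes, Dusp5, Dusp6 and Spry2 had both ENRI libraries above both WENRC libraries, an order shared by 23.0% of all tested genes, and Dusp4 had both below, as did 49.7%.

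**Figure D5:**
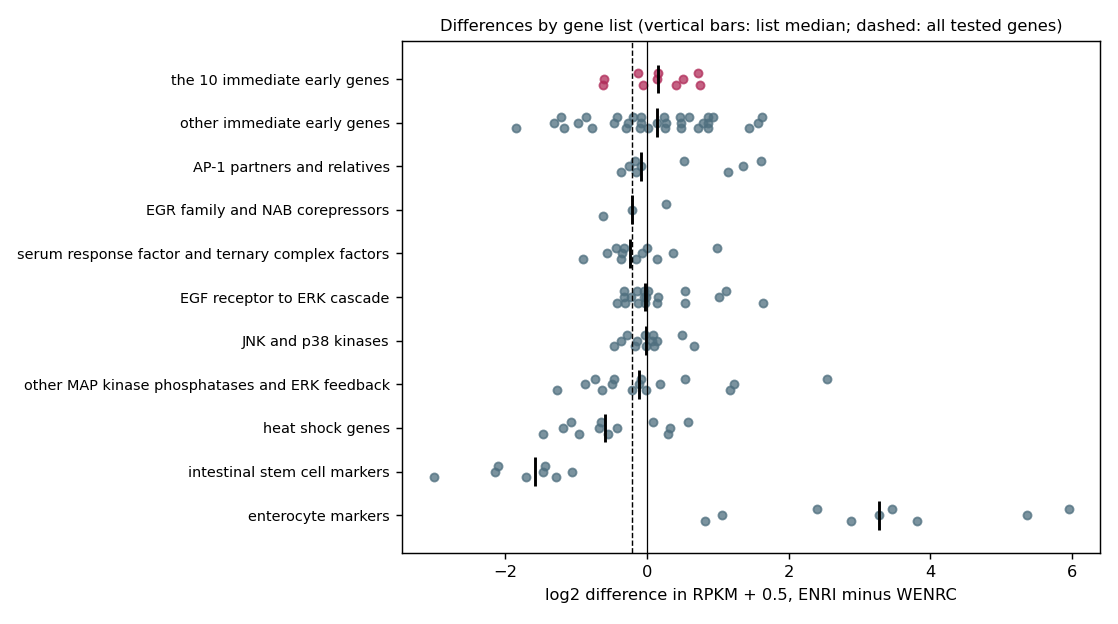
Log2 difference, ENRI minus WENRC, for the tested genes of each list, with 1 point per gene. Black bars are list medians, and the dashed line is the median of all tested genes at −0.21. The 10 immediate early genes lie between −0.62 and 0.75, inside the range of the other immediate early genes, while stem cell markers (median −1.58) and enterocyte markers (median 3.27) lie apart.

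The 5 genes outside the set whose pattern over the 4 libraries was nearest to the median pattern of the 10 were Kptn, 9530052E02Rik, Trib1, Zfp747 and Rasl10a. They were taken from 9607 tested genes with at least 50 reads in every library, by root mean square difference of centred log2 values, which was 0.0622 to 0.0751. Among the 10, Egr1 (0.0828) and Junb (0.115) were nearest to their own median pattern and Fosl1 (0.648) farthest. Trib1, which encodes a pseudokinase, had 12.7 and 17.5 RPKM in ENRI, against 10.3 and 14.9 RPKM in WENRC, and is itself on the list of other immediate early genes. With 4 libraries many genes share a pattern by its form alone.

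H3K27me3 was found at the promoter of 1 of the 10 genes, the same one in both media. A broad region overlapped the 2 kb on either side of the start of Fosl1, at 5447808 to 5449906 of chromosome 19 in ENRI and at 5447633 to 5450429 in WENRC. The authors' fold over input was 5.29 in the ENRI region and 8.65 in the WENRC region, from 1 library each. The best-window tag value of these broad regions had the opposite order, 73 in ENRI and 48 in WENRC. Fosl1 was also the gene with the lowest level of the 10. Of all tested genes 2.90% had a broad region at the promoter in ENRI and 3.13% in WENRC. The narrow lists marked Fosl1 alone in both media as well. At Fosb a broad region covered part of the gene body in ENRI, at 19887405 to 19892618 of chromosome 7, ending 2776 bp from the start. In WENRC the nearest broad region lay 25895 bp from the Fosb start, while a narrow region lay within the gene body in both media. The narrow region nearest to the Fosb start was 3022 bp away in ENRI and 2203 bp away in WENRC. For the other 8 genes the nearest broad region was 16426 bp or more from the start in both media, and up to 1058001 bp in ENRI and 2621726 bp in WENRC, for Jun.

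Promoter sequences from RefSeq, in build GRCm38.p6, were matched for 7 of the 10 genes, over 250 bases before to 50 after the start. They are shown, for the 150 bases before the start, for the 3 genes with both ENRI libraries above both WENRC libraries and for Jund, which had the opposite order. The AP-1 motif was searched as TGANTCA, on both strands like the others. The cAMP response element was searched as TGACGTCA and the EGR motif as GCGNGGGCG. The TATA box was searched as TATAAA, and the CArG box of serum response factor was searched too. No matches overlapped each other, and capitals mark each match. The windows are chr12:85473740-85473889 on the plus strand for Fos, chr5:32136322-32136471 on the plus strand for Fosl2, chr17:26508473-26508622 on the minus strand for Dusp1 and chr8:70697589-70697738 on the plus strand for Jund, each printed 5′ to 3′.
Fos: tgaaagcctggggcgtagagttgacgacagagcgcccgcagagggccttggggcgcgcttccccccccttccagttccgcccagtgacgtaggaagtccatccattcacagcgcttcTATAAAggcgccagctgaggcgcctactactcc
Fosl2: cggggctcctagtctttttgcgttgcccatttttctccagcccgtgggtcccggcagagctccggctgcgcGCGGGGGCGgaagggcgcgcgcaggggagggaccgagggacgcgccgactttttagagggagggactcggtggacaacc
Dusp1: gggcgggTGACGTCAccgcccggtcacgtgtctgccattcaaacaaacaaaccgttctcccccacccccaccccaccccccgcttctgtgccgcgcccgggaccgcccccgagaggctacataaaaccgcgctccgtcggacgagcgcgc
Jund: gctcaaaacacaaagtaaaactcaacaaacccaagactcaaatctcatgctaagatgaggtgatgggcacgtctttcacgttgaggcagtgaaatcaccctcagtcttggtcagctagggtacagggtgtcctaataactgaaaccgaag

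Fos, Fosl2 and Dusp1, whose media did not overlap, each held 1 match, and none of the 3 passed limma between the media. The TATA box of Fos spanned positions −33 to −28 from the start, and 13.6% of all 32851 promoters in the table hold TATAAA. The EGR match of Fosl2 spanned −79 to −71, and Fosb, which overlapped between the media, held another at −50 to −42, while 5.55% of all promoters hold the motif. The cAMP response element of Dusp1 spanned −143 to −136, and 1.79% of all promoters hold it. Junb held TATAAA at the first base of its annotated transcript, and Jun and Jund held no match. TGANTCA, present in 7.81% of all promoters, and the CArG box, in 1.63%, were in none of the 7 windows. Sites outside these windows were not searched, and Fosl1, Egr1 and Ier2 had no promoter sequence to search. These are matches of letters in a window, and binding was not measured.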

How the data were processed

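GRO-seq libraries were made with 14 PCR cycles, per the labels. HOMER counted reads over the bodies of mm9 RefSeq transcripts, per the file headers, and the authors deposited them as a scaled signal summing to 20000337 in ENRI batch 1 and nearly the same elsewhere. Values were multiples of a constant in each library (100% within 0.1 of an integer), which gave back the reads. The submitters' processing notes name FastQC, Bowtie, Bowtie2, HOMER 4.3 and edgeR. The deposited log2 fold changes, p-values, FDR and likelihood ratio score came from edgeR with batch as a term, per the file headers. H3K27me3 regions were called in each library alone against input, and their deposited fold ratio, tag score and tag signal describe single regions, per the file headers. Another 4 per-sample columns of values in the deposited table, counted over all libraries, were not used.

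Here RPKM was computed from the scaled reads and column totals for the longest transcript of each symbol. The filter was a level of 0.5 RPKM or more in 2 or more libraries. Differences were tested with limma 3.58.1 (R 4.3.3, mean trend) on log2(RPKM + 0.5), without a block, and p-values were adjusted over all 11602 genes. A fold change on this scale is understated for low genes. The sample titles use the numbers 1 and 2 for the mice of either medium, but a column could be assigned to a medium and a batch number only. Deviations of libraries of 1 batch from their medium means correlated at 0.0126 across genes. The replicate block was an alternative, as were edgeR 4.0.16 and DESeq2 1.42.0 on recovered reads, other pseudocounts, filters and scalings, and leaving out each library. P-values measure the spread between these libraries, which may be technical, and PCR copies are not separate molecules, so read numbers bound counting error only. Input and H3 samples were not analysed here.

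The 10 genes and the lists were chosen with earlier results of these data known. The rule named all 10 genes, the first 4 tested genes of each other list in written order, any list gene past the test, and the 5 genes of nearest pattern; 1 gene it named is not reported here.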

Additional observations from a re-analysis of the deposited data

How the results depend on the processing

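Of 17 other settings for the fit, 14 called 0 of the 10 genes, among them edgeR and limma with the replicate block, while DESeq2 called 2, DESeq2 with the replicate block 1, and leaving out 1 library 0 to 1. The count over all genes, 17, was 1 with a pseudocount of 0.1, 0 without a filter, 1491 with a filter of 10 reads, 0 with TMM scaling, 929 with quantile normalization, 0 in limma with the replicate block, 979 in edgeR and 932 in edgeR with the replicate block, 2738 in DESeq2 and 1664 with the block, and 0 to 5794 without 1 library. The median of the 10 genes, 0.15, was 0.41 with TMM, 0.30 with median centring, 0.42 in edgeR and 0.40 with the block, 0.46 in DESeq2 and 0.43 with the block, and −0.20 to 0.55 without 1 library. Fos, Fosl2, Dusp1, Jund and Fosl1 kept their direction in all 17 settings. Jun, −0.13 in the report, was 0.13 with TMM, 0.0185 with median centring, 0.25 in edgeR, 0.11 with the block, 0.28 in DESeq2, 0.14 with the block and −0.80 to 0.54 without 1 library. Ier2, −0.05, was 0.21 with TMM, 0.0571 with quantile normalization, 0.10 with median centring, 0.22 in edgeR, 0.19 with the block, 0.26 in DESeq2, 0.22 with the block and −0.33 to 0.23 without 1 library. Without 1 library Fosb ranged from −0.22 to 1.05, Junb from −0.0458 to 0.33 and Egr1 from −0.25 to 0.56. A window of 5 kb gave 2 genes with H3K27me3 in ENRI, Fosb being the second. The causes were not tested. A library left out leaves the lone one of its medium assumed to vary like the other pair.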

Other observations

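Heat shock genes are a second rapid stress response. Of 13 listed genes 12 were tested, 4 higher and 8 lower in ENRI, beside 34.3% of all tested genes higher in ENRI. Their median log2 difference was −0.60, against −0.21 over all tested genes. Of them limma called 0, and 6 had an unadjusted p under 0.05, beside 39.0% of all tested genes. The quasi-likelihood test of edgeR with the block also called 0, beside 8.03% of all tested genes. DESeq2 without the block called 1 higher and 3 lower, beside 14.7% higher and 8.89% lower of all tested genes. Hspa1a and Hspa1b, near-identical copies of the inducible HSP70 gene whose reads can be split between them, had 1.89 and 1.02 RPKM and 4.58 and 1.87 RPKM in ENRI, against 2.38 and 2.75 RPKM and 4.79 and 5.04 RPKM in WENRC. Dnajb1, a cochaperone induced with them, had 4.19 and 5.76 RPKM in ENRI, against 3.77 and 5.57 RPKM in WENRC. The large chaperone Hsph1 had 0.774 and 0.537 RPKM in ENRI, against 1.17 and 1.20 RPKM in WENRC.

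Of the other immediate early genes, Ier5l, Plk3 and Klf4 were chosen after their values were seen. Ier5l had the largest difference of the list in either direction, with 0.331 and 0.203 RPKM in ENRI, against 1.96 and 2.57 RPKM in WENRC (log2 −1.85, adjusted p = 0.0556, limma). These levels rest on 15 and 5 reads in ENRI and on 79 and 37 reads in WENRC. The quasi-likelihood test of edgeR with the block gave −2.76 with an adjusted p of 0.0483, and the authors' deposited table an FDR of 0.00212. Plk3 and Klf4 had the largest differences towards ENRI after Zfp36. Plk3, a stress-responsive kinase gene, had 8.67 and 15.7 RPKM in ENRI, against 3.35 and 3.84 RPKM in WENRC (adjusted p = 0.0623, limma). Its adjusted p was 0.0267 in edgeR with the block and 2.0e-05 in DESeq2 without the block. Klf4, a factor of differentiated gut epithelium, had 6.10 and 12.4 RPKM in ENRI, against 2.23 and 3.75 RPKM in WENRC (adjusted p = 0.0914, limma). For Klf4 edgeR with the block gave an adjusted p of 0.0242 and DESeq2 without the block 0.00118.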
